A study of Mus musculus with 12 samples.

Results

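The diet comparison in wild-type mice set 3 male mice fed a Western diet and sugar water against 3 male mice fed a control diet and normal water, 6 of the 12 mice of the series. Both groups were wild type for sphingosine kinase 2 (SphK2), on the C57BL6-NJ background. The 6 libraries were picked by the diet and genotype written above each column of the deposited sheet, with no use of measured values. The Western-diet mice were labelled 226, 226 and 232 days old and the control-diet mice 231, 231 and 232 days. Per the labels, feeding began at 12 to 18 weeks of age and lasted 16 weeks, with food freely available. The other 6 mice carried a constitutive SphK2 knockout (KO), 3 on the Western diet and 3 on the control diet, and entered the fit and one comparison below. RNA was counted with barcoded NanoString probes for 547 genes, mostly of the immune system. The liver is named by the series title and not by the sample labels.

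Feeding mice a Western diet with sugar water models metabolic dysfunction-associated steatohepatitis (MASH), in which fat-laden liver becomes inflamed and later scarred. In such livers monocytes enter from the blood and take up places next to the resident macrophages, the Kupffer cells. Endothelial cells lining the vessels display adhesion molecules that hold these cells, and stellate cells respond to transforming growth factor beta by laying down matrix. Hepatocytes, the main cell of the organ, make most complement proteins of the blood and the iron hormone hepcidin.

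The wild-type libraries held 440842 to 520235 counts each, recovered by undoing the scale factor of each library, of which 46.9% to 51.0% fell on the 10 most abundant genes. Albumin and most other defining hepatocyte genes were not on the panel. The hepatocyte genes that were present were abundant in all 6 libraries: hepcidin (Hamp) stood at 12890.0, 23597 and 19668 normalized counts in the Western-diet mice and 34638, 27924 and 31276 in the control-diet mice. F4/80 (Emr1), Csf1r and the C1q genes of macrophages were also measured. In bulk RNA, fewer cells of a type and less RNA per cell cannot be told apart.

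1 Western-diet library stood apart from the other two. On the first principal component of the 453 tested genes, which held 58.9% of the variance over all 12 libraries, the Western-diet mice lay at 5.29, -5.59 and 1.13 and the control-diet mice at -6.32, -6.65 and -5.77. Replicate 2 of the Western-diet group therefore lay next to the wild-type control mice, and within the range of the 6 control-diet libraries of both genotypes (-6.65 to -3.76). Whether its label is right cannot be settled from the files, and it is kept under that label. In the 6 wild-type libraries alone the first component, with 57.1% of the variance, placed the Western-diet mice at 8.65, -1.54 and 5.05 and the control-diet mice at -4.63, -3.90 and -3.63. There replicate 2 lay between the other Western-diet mice and all 3 control-diet mice. The counts of called genes are therefore also given without this library.

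**Figure D1:**
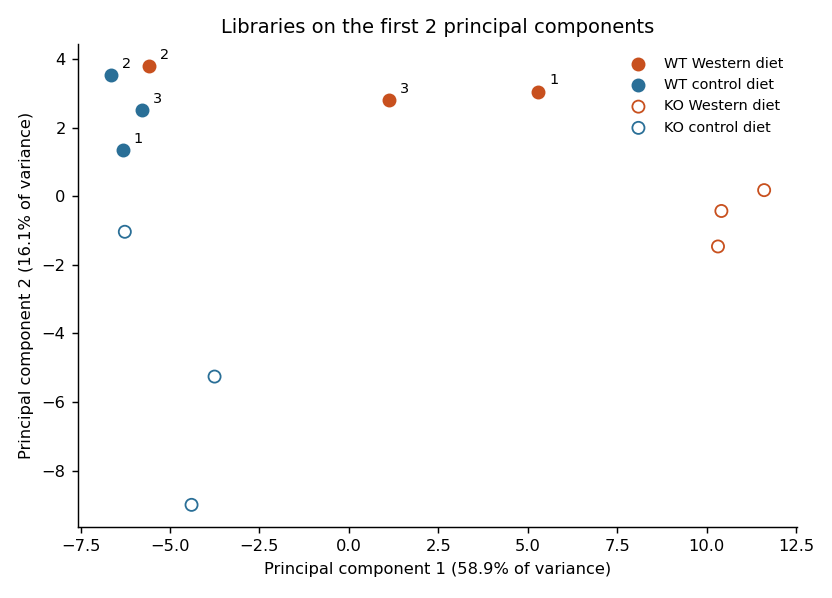
The 12 libraries on the first and second principal components of 453 genes (axes in component scores, with the share of variance), filled for wild type and open for KO, orange for the Western diet and blue for the control diet, with replicate numbers on wild-type points. Wild-type Western-diet replicate 2 lies at -5.59 on the first component, beside the wild-type control-diet mice at -6.32, -6.65 and -5.77.

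On the Western diet, 22 genes were higher and 17 lower in wild-type mice. The rises were led by Cdkn1a, the cell cycle inhibitor p21, by Cish, a feedback inhibitor of cytokine receptors, by Il1rn, the interleukin-1 receptor antagonist, and by Ccr2, the receptor that brings monocytes out of the bone marrow. Among the largest falls were the complement gene C8b and the circadian repressor Nfil3. Log2 differences of the genes called higher ran from 0.26 to 1.82, and of those called lower from -0.30 to -1.38. A gene was called at an adjusted p under 0.05 (limma across 453 genes, Benjamini-Hochberg adjustment), and differences are on the scale log2(normalized count + 1).

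The 39 called genes were 8.61% of the 453 tested, with 4.86% higher and 3.75% lower. At an unadjusted p under 0.05, 114 genes passed. In all 39 called genes the 3 Western-diet mice did not overlap the 3 control-diet mice, which held for 127 of all tested genes, 28% of them (72 with the Western diet above, 15.9%, and 55 below, 12.1%). The median tested gene differed by 0.09. The split of the calls depended on the scaling: 17 genes were higher and 21 lower after recentring on the median ratio, 20 and 22 after quantile normalization, and 11 and 60 with each library recentred on its own median, which moved the median gene to -0.19. Of the 39, 3 genes passed with each of the 12 libraries left out in turn. The other 36 called genes did not pass without Western-diet replicate 3, without control-diet replicate 1 or without control-diet replicate 3. In these 3 fits 3, 4 and 3 genes passed, against 12 without Western-diet replicate 1 and 23 without control-diet replicate 2. The KO libraries also share in the estimate of the spread, and 22 genes passed without KO Western-diet replicate 3 and 25 without KO control-diet replicate 3.

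**Figure D2:**
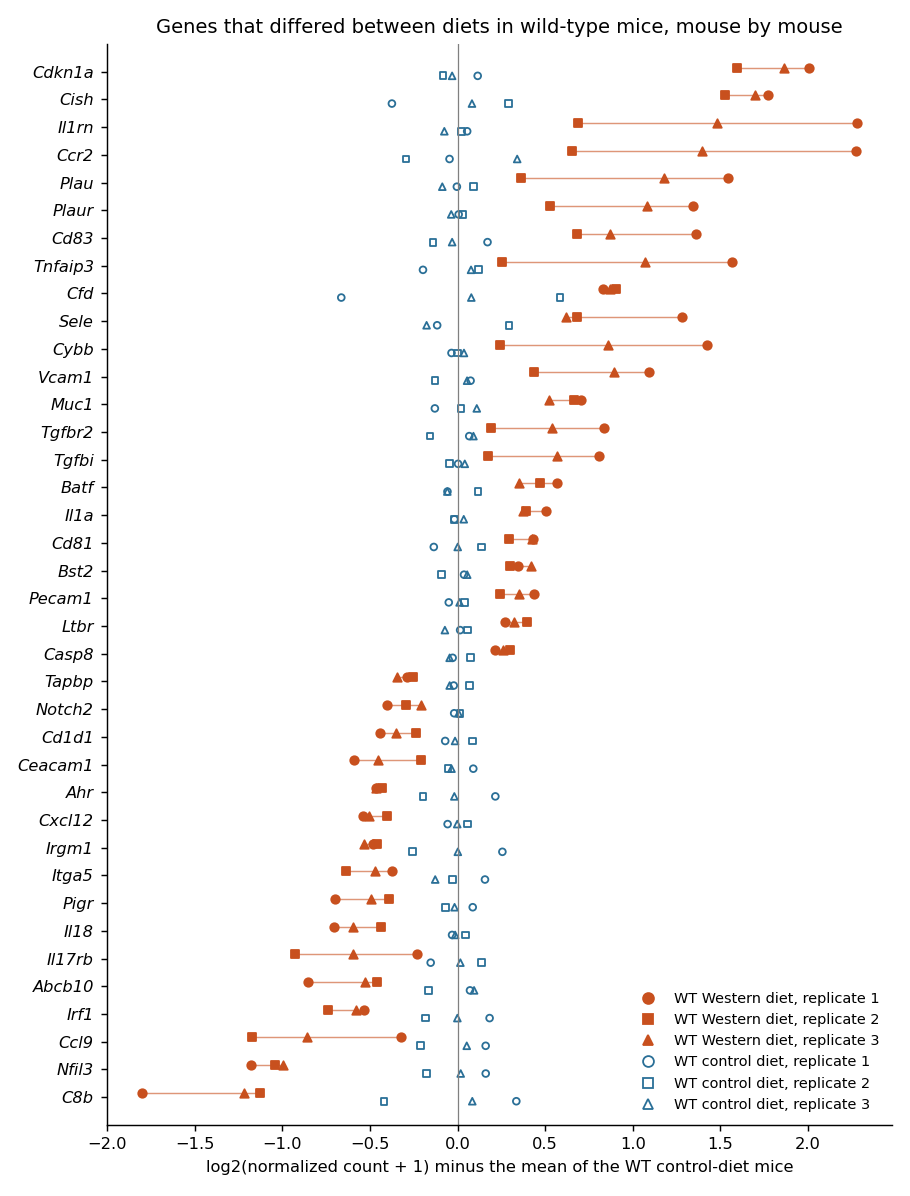
Of the 39 called genes, 38 (rows) in each wild-type mouse, as log2(normalized count + 1) minus the mean of the control-diet mice; filled orange symbols are Western-diet mice, open blue symbols control-diet mice, and the shape gives the replicate. The groups do not overlap in any row, and Western-diet replicate 2 (squares) is the nearest of the 3 to the control-diet mean in 15 of the 22 genes called higher.

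Cdkn1a and Cish had the largest rises. Cdkn1a, which halts the cell cycle downstream of p53, stood at 284, 213 and 257 normalized counts in the Western-diet mice and at 75.9, 66.0 and 68.5 in the control-diet mice. All 3 Western-diet values lay far above all 3 control values, a log2 difference of 1.82 (SE 0.34, adjusted p = 0.0145). Cish, which Stat5 induces and which dampens the receptors that signal through it, stood at 167, 141 and 159 on the Western diet and at 37.0, 59.3 and 51.1 on the control diet, a log2 difference of 1.66 (SE 0.37, adjusted p = 0.0243). Here too replicate 2 sat near its group. Both genes rose; in voom on the recovered counts Cdkn1a no longer passed, and Cish no longer passed in an equal-variance test per gene.

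Promoter sequences of Cish and Irf1, which moved in opposite directions, and of Tnfaip3 follow, because each holds a short motif that the text names. They are RefSeq windows of the build GRCm38.p6, from 250 bases before to 50 after the gene start, printed 5′ to 3′ on the gene's strand. Capitals mark the STAT palindrome TTCNNNGAA (read on both strands) and the NF-kB consensus, given here by name alone and also searched on both strands; in these windows the 2 motifs do not overlap. Cish lies at chr9:107296409-107296708 on the plus strand, with 2 STAT matches; Irf1 at chr11:53769764-53770063 on the plus strand, with 1 STAT and 1 NF-kB match; and Tnfaip3 at chr10:19015361-19015660 on the minus strand, with 2 NF-kB matches. Irf1 and Tnfaip3 each have 2 windows in RefSeq, of which the first is shown.
Cish: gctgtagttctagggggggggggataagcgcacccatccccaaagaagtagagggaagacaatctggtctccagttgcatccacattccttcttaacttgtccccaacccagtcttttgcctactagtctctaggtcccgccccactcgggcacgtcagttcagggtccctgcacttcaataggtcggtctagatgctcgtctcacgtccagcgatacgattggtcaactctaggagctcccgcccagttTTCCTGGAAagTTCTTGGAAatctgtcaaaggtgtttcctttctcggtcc
Irf1: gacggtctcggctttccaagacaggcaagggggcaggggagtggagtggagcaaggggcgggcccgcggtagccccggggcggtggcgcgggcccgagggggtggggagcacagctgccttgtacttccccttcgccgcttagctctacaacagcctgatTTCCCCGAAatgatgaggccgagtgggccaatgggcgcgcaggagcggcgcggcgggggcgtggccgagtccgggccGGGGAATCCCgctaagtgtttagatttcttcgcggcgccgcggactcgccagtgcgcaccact
Tnfaip3: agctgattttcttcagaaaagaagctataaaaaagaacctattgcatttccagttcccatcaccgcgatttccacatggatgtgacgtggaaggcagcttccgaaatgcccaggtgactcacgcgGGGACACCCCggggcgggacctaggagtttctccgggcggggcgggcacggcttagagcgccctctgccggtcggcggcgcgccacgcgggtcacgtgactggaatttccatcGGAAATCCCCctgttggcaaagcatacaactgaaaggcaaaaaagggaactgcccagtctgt
The STAT palindrome occurred in 8.47% of 27025 RefSeq promoters and in 12.3% of 341 tested panel genes with a window. It occurred in 3 of 18 called higher genes and 2 of 14 called lower genes that had one. The NF-kB consensus occurred in 4.35% of all promoters and 9.09% of the panel genes, and in 2 of 18 higher and 3 of 14 lower genes. A match is a description of these letters and not a site of binding.

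Among the falls, Nfil3 and Cxcl12 passed whichever library was left out. Nfil3, a repressor driven by the circadian clock and by cytokines, stood at 219.7, 242 and 249 normalized counts on the Western diet and at 557, 439.9 and 504 on the control diet, a log2 difference of -1.07 (SE 0.13, adjusted p = 0.00108). Its Western-diet values spanned a narrow range well below every control value. Nfil3 passed under every setting tried. Cxcl12, the chemokine that keeps stem cells and lymphocytes in place, stood at 4972, 5463 and 5086 on the Western diet and at 6955, 7534 and 7225 on the control diet, a smaller difference of -0.48 (adjusted p = 0.00536), which did not pass after quantile normalization. Casp8, the initiator caspase of death receptors, was higher, by 0.26 (adjusted p = 0.0435), with a difference of -0.02 under sample-median recentring. It did not pass without Western-diet replicate 2. In all it passed in 3 of the 12 fits with a library left out and under 6 of 13 other settings. Of 13 p53 and cell death genes tested, 2 rose, Cdkn1a and Casp8, beside 4.86% of all tested genes called higher.

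Interferon response genes were called at about the share of all genes, 2 of 25 (8%) beside 8.61%. Irf1, the transcription factor that interferon gamma induces, stood at 588, 509 and 568 on the Western diet and at 966, 749.9 and 850.0 on the control diet, a log2 difference of -0.62 (adjusted p = 0.0145). Irgm1, an interferon-induced GTPase, fell by 0.49, while Bst2 (tetherin), which holds viruses at the cell surface, rose by 0.35. On the list of 25, which does not hold Irgm1, Bst2 rose and Irf1 fell, with a median of 0.03, or -0.25 under sample-median recentring. The chemokines of interferon gamma gave differences that did not pass: Cxcl9 -0.81 (adjusted p = 0.198) and Cxcl10 0.57 (adjusted p = 0.215). Of 12 class I and immunoproteasome genes, 2 fell (16.7%, beside 3.75% of all tested genes called lower). Tapbp, which loads peptide on class I, fell by 0.30 and Cd1d1, which displays lipid antigens, by 0.34. Cd1d1 stood at 6688, 7712 and 7135 on the Western diet and at 8668, 9654 and 9013 on the control diet.

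The interleukin-1 family had changes in both directions. Il1rn, which blocks the interleukin-1 receptor, stood at 245, 80.6 and 140.4 on the Western diet and at 51.6, 50.4 and 47.1 on the control diet, a log2 difference of 1.48 (SE 0.30, adjusted p = 0.0193). Replicate 2 was the lowest of the Western-diet mice and still above every control mouse. Il1a, a ligand of that receptor, stood at 119, 110.1 and 109 on the Western diet and at 82.7, 82.8 and 85.9 on the control diet, a difference of 0.42. Il1a did not pass under any of the 3 other scalings. Il18, a related cytokine activated by caspase-1, fell by 0.58, at 249, 301 and 269 on the Western diet and 399, 421 and 404 on the control diet. Il1b gave -0.07 (adjusted p = 0.848). Il17rb, a receptor chain for interleukin-25, fell by 0.58 (adjusted p = 0.0452) and did not pass without Western-diet replicate 2. It passed in only 1 of the 12 fits with a library left out and under 7 of 13 other settings. Of 42 interleukins and receptors 2 rose and 1 fell (7.14% called, near the 8.61% of all tested genes). Il17rb was not on that list.

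Monocyte and macrophage genes spread widely between the Western-diet mice. Ccr2 stood at 238, 76.5 and 128 on the Western diet and at 46.7, 39.2 and 61.4 on the control diet, a log2 difference of 1.44 (adjusted p = 0.0243). Cybb, the oxidase subunit that makes superoxide in phagocytes, stood at 706, 310.0 and 477 on the Western diet and at 256, 262 and 269 on the control diet, a difference of 0.84. These were the 2 of 22 macrophage and monocyte markers that rose, 9.09% beside 4.86% of all tested genes called higher. The list median was 0.36, or 0.08 under sample-median recentring. On this list 1 gene passed in voom, 1 without the variance trend and 0 in the equal-variance test per gene. Cybb passed in 3 of the 12 fits with a library left out. Summed levels over the list were 9598, 4941 and 7060 normalized counts in the Western-diet mice and 5592, 5312 and 5438 in the control-diet mice. Replicate 2 thus lay below all 3 control mice, and the other 2 lay above them.

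Several lipid-handling and recruitment genes did not pass, with the same order of mice. Trem2, a lipid receptor of macrophages in fatty liver, stood at 84.5, 32.6 and 57.7 on the Western diet and at 25.3, 32.5 and 23.5 on the control diet, a difference of 0.99 (adjusted p = 0.0859). Ccl2, the ligand of Ccr2, stood at 392, 95.9 and 236 on the Western diet and at 82.7, 71.6 and 94.1 on the control diet, a difference of 1.32 (adjusted p = 0.11). Itgax, the integrin of dendritic cells and monocyte-derived macrophages, stood at 94.4, 30.6 and 62.1 on the Western diet and at 27.3, 26.9 and 27.6 on the control diet, a difference of 1.03 (adjusted p = 0.0757), which passed after median-ratio recentring and quantile normalization. In all 3 genes replicate 2 lay just above the highest control mouse and well below replicates 1 and 3. Without replicate 2 these 3 genes passed, with differences of 1.35, 1.87 and 1.46, and so did 16 of 22 list members, at a list median of 0.60. In that fit 17% of all tested genes were called higher. Replicate 2 was left out after its values were seen and was the lowest Western-diet mouse in these 3 genes. Their passing, and the count for the list, were therefore partly fixed by the choice. Kupffer cell genes gave differences that did not pass with all mice: Marco -0.76 (adjusted p = 0.0873) and Cd163 -0.24 (adjusted p = 0.562).

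**Figure D3:**
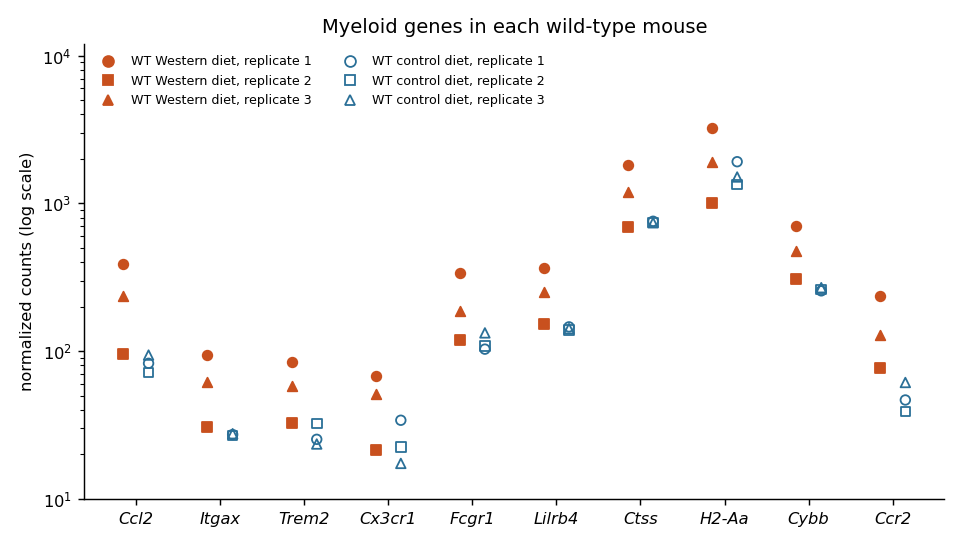
Normalized counts (log scale) of 10 myeloid genes in each wild-type mouse, filled orange for the Western diet and open blue for the control diet, with the shape giving the replicate. Western-diet replicate 1 (circles) is the highest mouse in all 10 genes, and in H2-Aa replicate 2 (square) lies below every control mouse, at 999 counts. Of these 10 genes Cybb and Ccr2 passed with all mice.

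Of 6 endothelial markers 3 rose (50%, beside 4.86% of all tested genes): the adhesion molecules Vcam1 (129, 81.6 and 112 on the Western diet, 63.3, 54.8 and 62.4 on the control diet, difference 0.81), Sele and the junction gene Pecam1. Sele, which slows rolling leukocytes, was low throughout at 29.8, 19.4 and 18.5 on the Western diet and 10.7, 14.6 and 10.2 on the control diet. Pecam1 differed by 0.34 and did not pass under any of the 3 other scalings. The list median was 0.45. Of 8 stellate and matrix genes 2 rose (25%), though none passed without the variance trend or in the equal-variance test per gene, and 7 had an unadjusted p under 0.05. The 2 were Tgfbi, a matrix protein that transforming growth factor beta induces (0.52), and its receptor Tgfbr2 (0.52). Tgfbi stood at 602, 388 and 511 on the Western diet and 345, 334 and 354 on the control diet. Collagen and smooth muscle actin genes were not on the panel. The urokinase gene Plau, which activates plasmin, stood at 84.5, 36.7 and 65.3 on the Western diet and 28.2, 30.2 and 26.6 on the control diet, a difference of 1.03, and its receptor Plaur at 65.6, 36.7 and 54.4 on the Western diet and 25.3, 25.7 and 24.5 on the control diet, a difference of 0.98. Replicate 2 was the lowest of the Western-diet mice in both. Muc1, an epithelial mucin, rose by 0.63, and Itga5, the fibronectin receptor chain, fell by 0.49. Integrins and adhesion genes counted 3 higher and 1 lower of 24 (16.7% called, beside 8.61% of all tested genes). The 3 were those of the endothelial list.

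Dendritic cell factors and NF-kB regulators followed. Cd83, of maturing dendritic cells, stood at 141, 87.7 and 100.2 on the Western diet and 61.3, 49.2 and 53.2 on the control diet, a difference of 0.97. Batf, needed for some dendritic and T cell programmes, rose by 0.46. With Cd83, 2 of 10 dendritic cell markers rose (20%, beside 4.86% of all tested genes). Batf did not pass under any of the 3 other scalings. Tnfaip3 (A20), which shuts off NF-kB, stood at 151, 60.2 and 107 on the Western diet and 43.8, 54.8 and 53.2 on the control diet, a difference of 0.96 (adjusted p = 0.0452). It was the 1 of 31 Toll-like receptor and NF-kB genes to rise (3.23%, near the share of all tested genes). Of the 31, 0 passed in voom or without the variance trend. Tnfaip3 passed in 2 of the 12 fits with a library left out. Ltbr, the receptor for lymphotoxin, rose by 0.33. With Tnfaip3, 2 of 28 TNF superfamily and Traf genes rose (7.14%, near the 4.86% of all tested genes). Tnf gave -0.43 (adjusted p = 0.478) at counts of 22.9, 19.4 and 8.71 on the Western diet and 16.5, 24.6 and 24.5 on the control diet.

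The hepatocyte and acute phase list had 4 tested genes, Hamp among them, and none of them passed in limma or in voom, with 1 at an unadjusted p under 0.05. C8b, part of the membrane attack complex, stood at 770.3, 1229.9 and 1151 normalized counts on the Western diet and at 3385, 2006 and 2844 on the control diet, a log2 difference of -1.38 (SE 0.30, adjusted p = 0.0243). The 3 Western-diet values were each below every control value. Of 9 terminal complement genes 1 fell (11.1%, beside 3.75% of all tested genes called lower). Pigr, which carries IgA into bile, fell by 0.53 and the adhesion molecule Ceacam1 by 0.42. With Muc1, 1 of 5 epithelial defence genes rose and 2 fell (60% called, beside 8.61% of all tested genes). Hamp differed by -0.78 (adjusted p = 0.11) and passed without Western-diet replicate 2, at -0.97 (adjusted p = 0.0385), without KO control-diet replicate 1 and under sample-median recentring. Cfd (adipsin), the protease that starts the alternative pathway, stood at 281, 296 and 289.6 on the Western diet and at 99.3, 237 and 167 on the control diet, a difference of 0.87 (adjusted p = 0.0466). Its Western-diet values were alike while the control-diet mice spread widely, and it did not pass without Western-diet replicate 2. The call for Cfd passed in only 2 of the 12 fits with a library left out and under 5 of 13 other settings. It was the 1 of 21 early complement genes that rose (4.76%, beside 4.86% of all tested genes).

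Called genes of other kinds fell too. The chemokine Ccl9 fell by 0.78, the mitochondrial transporter Abcb10 by 0.61 and the aryl hydrocarbon receptor Ahr by 0.45. Notch2, a cell fate receptor that falls outside the rule for named genes, fell by 0.30. Of 10 nuclear receptors and metabolic regulators 1 rose and 2 fell (30% called, beside 8.61% of all tested genes). Of 19 Jak, Stat and IL-6 axis genes 1 rose (Cish) and 1 fell (Nfil3), 10.5% called.

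Lymphocyte genes and class II genes had few or no calls, beside 8.61% of all tested genes. At that share, lists of 9 to 20 genes would hold few calls or none. None of 20 T cell markers and none of 11 NK and cytotoxic genes passed in limma or in voom. At an unadjusted p under 0.05, 2 and 1 of them did. Their medians were 0.09 and -0.02, and under sample-median recentring -0.19 and -0.30. Cd3e stood at 20.9, 11.2 and 22.9 on the Western diet and 18.5, 21.3 and 24.5 on the control diet, and Cd8a at 22.9, 19.4 and 31.6 on the Western diet and 26.3, 17.9 and 19.4 on the control diet. At such counts a small difference was not detectable. Cd81, a B cell co-receptor that many other cells also make, rose by 0.38 and was the 1 of 10 B cell markers to pass. Of 9 class II genes none passed in limma or in voom, and 1 had an unadjusted p under 0.05. Their median was 0.20, or -0.08 under sample-median recentring. H2-Aa stood at 3221, 999 and 1912 on the Western diet and at 1916, 1339.8 and 1509.8 on the control diet, so replicate 1 lay above and replicate 2 below every control mouse (0.22, adjusted p = 0.739). H2-Ab1 had 1854, 570.1 and 1131 on the Western diet and 1117, 777 and 910.4 on the control diet. The alarmins S100a8 and S100a9 of neutrophils and monocytes gave 0.86 (adjusted p = 0.17) and 0.72 (adjusted p = 0.292).

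The distance of replicate 2 from its group was broad. Replicate 1 had the highest value of the 3 Western-diet mice in 238 of 453 genes, replicate 2 in 80 and replicate 3 in 135, and replicate 2 had the lowest in 280. Against the control mean the median gene differed by 0.15 in replicate 1, -0.04 in replicate 2 and 0.16 in replicate 3, and 42, 2 and 15 genes lay more than 1 log2 unit above it. The SD of log2 values was larger in the Western-diet group than in the control-diet group in 274 genes (60.5%), with medians of 0.216 and 0.145. The 10 genes with the largest SD in the Western-diet group were H2-Aa, H2-Ab1, Ccl2, Ccr2, Il1rn, Itgax, Clec5a, Tlr2, Cx3cr1 and Runx1. For the 22 genes called higher, replicate 2's displacement from the control mean had a median of 64.9% of the mean displacement of the other 2 mice, and for the 17 called lower, 88.1%. These genes were called with replicate 2 in the fit, so a displacement of replicate 2 in the same direction was partly fixed by their choice.

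Without replicate 2, 94 genes passed (20.8%), 77 higher (17%) and 17 lower (3.75%), 36 of them shared with the 39. The 58 that passed only then were 57 higher genes and Hamp. Replicate 2 was singled out after its values were seen and was the lowest Western-diet mouse in 280 of 453 genes. Leaving it out raises the Western-diet mean in those genes, so more higher calls were likely from the choice itself. This holds most for lists in which replicate 2 lay far below replicates 1 and 3. A share above that of all tested genes is therefore no separate result for such a list. Replicates 1 and 3 lay above all 3 control mice in 180 genes (39.7%) and below them in 63 (13.9%). Fc receptor and Syk genes had 0 calls of 12 with all mice in limma and in voom, 6 at an unadjusted p under 0.05, and 8 higher without replicate 2, among them Fcgr1, Fcgr3 and Syk, which signals from Fc receptors. Higher calls without replicate 2, beside 17% of all tested genes, numbered 16 of 22 macrophage markers, 8 of 24 integrins and adhesion genes and 6 of 32 chemokines and their receptors. They numbered 5 of 8 stellate and matrix genes, among them the ligand Tgfb1, 5 of 25 interferon response genes and 4 of 6 endothelial markers. The remaining lists named here had 4 of 31 Toll-like receptor and NF-kB genes, 3 of 10 dendritic cell markers and 2 of 9 class II genes. The shares of chemokine, interferon response, Toll-like receptor and class II genes were near that of all tested genes. T cell, NK and neutrophil and mast cell lists had none in either fit, and 1 of the 7 neutrophil and mast cell genes had an unadjusted p under 0.05 with all mice. In replicate 2 the list medians were -0.09 for macrophage markers and -0.36 for class II genes, against 0.85 and 0.80 in replicate 1 and 0.40 and 0.29 in replicate 3.

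**Figure D4:**
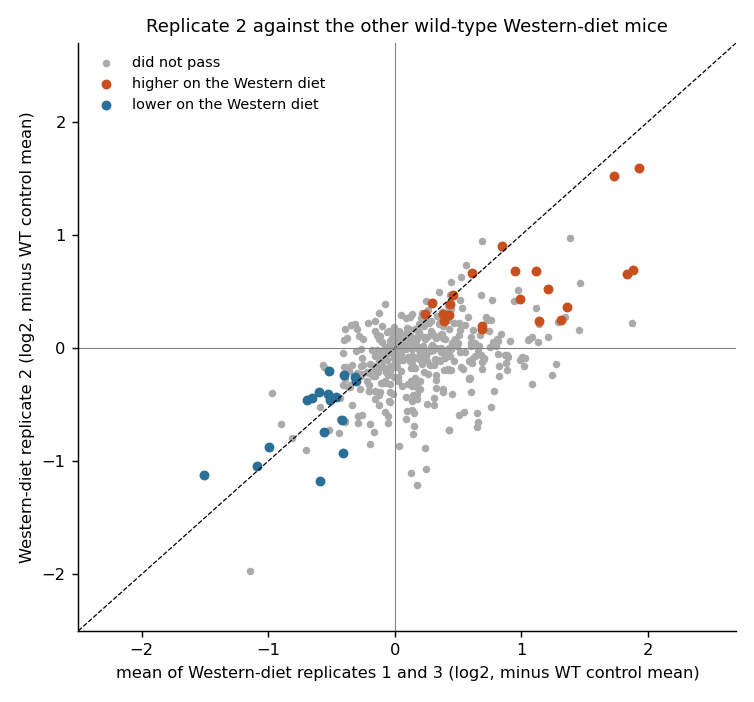
Each tested gene's log2 difference from the control-diet mean in Western-diet replicate 2 (y axis) against the mean of replicates 1 and 3 (x axis), with the dashed line at equal differences; orange and blue points passed with all mice, grey points did not. Most genes called higher lie below the line, while those called lower lie nearer to it. The calls were made with replicate 2 in the fit, which favours genes in which it differed in the same direction.

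**Figure D5:**
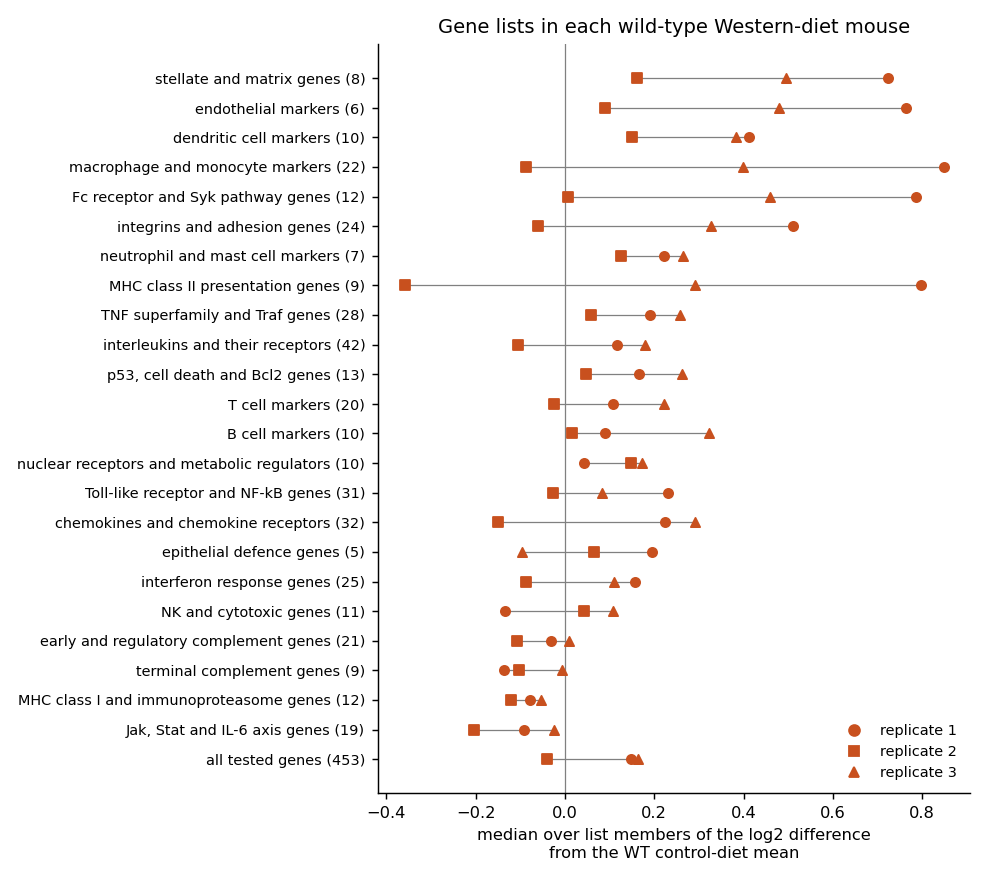
Median over list members of the log2 difference from the control-diet mean in each Western-diet mouse, for the 23 lists with 5 or more tested genes (number tested in brackets) and for all tested genes; shapes give the replicate. Replicate 2 (squares) lies left of replicate 1 for macrophage markers (-0.09 and 0.85) and class II genes (-0.36 and 0.80).

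The same diet comparison in the KO mice called 205 genes (45.3%), 169 higher (37.3%) and 36 lower (7.95%). It sets other libraries against each other, but both comparisons took each gene's spread from the same fit of all 12 libraries. The calls in KO and wild-type mice are therefore not independent of each other. Of the 39 wild-type calls, 28 were called in the same direction in KO mice, 1 in the opposite direction and 10 not. Cdkn1a and Cish, the leading wild-type rises, gave 0.59 (adjusted p = 0.181) and 0.57 (adjusted p = 0.223) in KO mice. Their diet effects differed between the genotypes, KO minus wild type, by -1.23 (adjusted p = 0.119) and -1.10 (adjusted p = 0.171), so neither difference passed. The difference of the diet effects, KO minus wild type, passed for 6 genes (1.32%), of which Cfd alone passed with every library left out in turn. Among them, Cfd differed by 2.54 (adjusted p = 0.00427), from 3.40 in KO mice and 0.87 in wild-type mice, and H2-Eb1, a class II chain, by 2.14 (adjusted p = 0.0414), from 2.18 in KO mice and 0.04 in wild-type mice. Tapbp, 0.20 in KO and -0.30 in wild type, was the gene called in opposite directions. The KO mice on the control diet were labelled 250 to 259 days old and those on the Western diet 217 to 252, so age differs with diet there more than in wild-type mice. The protocol times allow at most 238 days, so the labels conflict for the 3 KO control-diet mice and for KO Western-diet replicate 3.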

How the data were processed

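RNA was counted with gene-specific barcoded probes, per the labels' protocols. Per the file headers, the deposited values are log2 normalized counts. The authors' normalization is not given in these sources. Within a library, 100% of values were whole multiples of 1 factor (tolerance 0.001), so depth could be recovered: 440842 to 643638 counts per library over all 12. Columns were assigned by the diet and genotype in the sheet's own header lines. The deposited value table of the series holds the same values shifted by 1 animal and was not used. The sheet's headers match the sample titles, but the files alone do not settle which assignment is right, and each diet difference depends on it.

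The deposited log2 values were returned to the linear scale, 1 was added and log2 taken again, which understates changes of low genes. The filter was a mean of 20 or more over the 12 libraries, which 453 of 547 genes passed and 94 did not. limma 3.58.1 (R 4.3.3) fitted all 12 libraries with a mean per group and a variance trend. Each comparison's two-sided p-values had a Benjamini-Hochberg adjustment, with a threshold of 0.05. The fit was tested on simulated data with set differences and values drawn independently in each library. The simulation held no shift shared by the genes of a library, so it cannot vouch for the calls in these data. Nothing in the labels says that mice were independent litters. The p-values set each difference against the spread between these mice within their groups, taken over all 12 libraries, KO included. No exact permutation test was run on single genes, since 0.1 is the smallest p it allows with 3 mice a group. Low counts limit the precision of low genes.

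The members and 27 gene lists were chosen with earlier results of these data known. Lists are described by counts and medians, without a set test, for the 23 with 5 or more tested genes. Named genes were the 15 largest rises and 15 largest falls that passed, up to 4 members of each list with the smallest p, 18 genes named throughout and the 10 with the largest spread among Western-diet mice. Other called genes and those added beside them were chosen after their values were seen. A second label of diet duration, from 16 to 27 weeks by 1 per mouse, was not used. The alternatives concerned scaling, pseudocount, filter, variance model, test, age, the samples in the fit and each library. Results of 1 gene are not reported here. Promoter windows are RefSeq sequences of GRCm38.p6, matched by the gene identifier number in the sheet.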

Additional observations from a re-analysis of the deposited data

Results flagged for a closer look

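For 6 genes the diet effect differed between the genotypes by the interaction term of limma (KO minus wild type, Benjamini-Hochberg over 453 genes). For Cfd the difference was 2.54 (adjusted p = 0.00427): KO mice had 234, 293 and 262 normalized counts on the Western diet and 27.3, 21.7 and 22.7 on the control diet, and wild-type mice 281, 296 and 289.6 on the Western diet and 99.3, 237 and 167 on the control diet. For H2-Eb1 it was 2.14 (adjusted p = 0.0414), with 861, 1059.8 and 921 on the Western diet and 274, 144 and 224 on the control diet in KO mice, and 596, 206 and 356 on the Western diet and 369.9, 282 and 384 on the control diet in wild-type mice. For Il1a it was 0.80 and for Irf1 0.78 (adjusted p = 0.0414 for both). Ltbr gave -0.51, with diet effects of -0.18 in KO and 0.33 in wild-type mice, and Tapbp gave 0.50, with 0.20 in KO and -0.30 in wild-type mice. Cfd passed with each of the 12 libraries left out in turn and under all 12 other settings. The other 5 each failed to pass in 8 or 9 of the 12 fits with a library left out, H2-Eb1 passing in 4.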

How the results depend on the processing

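Most differences kept their direction, and most calls depended on the setting. Recentring each library on its own median gave 71 calls (11 higher, 60 lower), with 53 calls in the lists and 66 interaction calls. It also turned the sign of Casp8 (-0.0193). Without the variance trend 21 genes passed (12 higher, 9 lower), 19 of them in lists, and 2 for the interaction. The equal-variance test per gene called 25 (14 higher, 11 lower). The 6 wild-type libraries alone gave 19 (9 higher, 10 lower), 19 in lists, and age as a covariate gave 18 (10 higher, 8 lower), 17 in lists, and 1 interaction call. The interaction had 23 calls with a pseudocount of 8, 2 with no filter, 39 with a filter at a mean of 50, 37 after median-ratio recentring and 27 after quantile normalization. The cause was not tested. Leaving out each library gave 3 to 94 calls, 0 to 77 higher, 3 to 18 lower, 3 to 74 in lists, and 1 to 100 for the interaction. The fits with 0 higher calls in limma were those without wild-type Western-diet replicate 3 or control-diet replicate 3, where 46 and 63 genes were higher at an unadjusted p under 0.05. Other settings moved the number of wild-type calls by less than 1.5 times. The planned repeat with the series value table was not run, because read by its own labels it would put 2 KO Western-diet libraries among the wild-type control mice. No paired analysis was possible because the labels carry no replicate numbers. Depth of 440842 counts or more limits genes with few counts, such as Cd3e and Sele.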

Other observations

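Neither of the genes Cd36 and Slamf7 fell under the rule for named genes, and both were chosen after their values were seen. Cd36, a fatty acid transporter, stood at 4881, 3275 and 3902 normalized counts in the Western-diet mice and at 1153, 2471 and 1637 in the control-diet mice, a log2 difference of 1.25 that did not pass (adjusted p = 0.0805), although the groups did not overlap; it passed with the wild-type libraries alone and without KO control-diet replicate 1 or 2. Slamf7, a receptor of macrophages and NK cells, stood at 56.7, 22.4 and 31.6 in the Western-diet mice and at 21.4, 11.2 and 13.3 in the control-diet mice, a difference of 1.16 (adjusted p = 0.0513), and 1.46 without Western-diet replicate 2 (adjusted p = 0.00856). Slamf7 also passed under the 3 other scalings and with robust variances.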
